A study of Mus musculus with 24 samples.

Results

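The genes described here encode the 2 main families of conjugating enzymes of the liver, the UDP-glucuronosyltransferases (Ugt) and the cytosolic sulfotransferases (Sult). They were taken by name, as the protein-coding genes of the mouse count table whose symbol begins with Ugt1, Ugt2, Ugt3 or Sult, which gave 42 of 54532 genes, 21 Ugt and 21 Sult. Earlier results of these data were known when these families were chosen. Glucuronosyltransferases sit in the membrane of the endoplasmic reticulum and transfer glucuronic acid from UDP-glucuronic acid to bilirubin, steroids, bile acids, drugs and phenols. Sulfotransferases work in the cytosol and transfer sulfate from the donor PAPS to phenols, catecholamines, thyroid hormone, estrogens and bile acids. Either conjugation makes its substrate more soluble in water, so that it can leave the hepatocyte towards bile or blood, and both families are known as targets of nuclear receptors and of the hepatocyte factor HNF1.

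RNA-seq was done on whole livers of male mice after a 24 h fast, with 4 livers in each of 6 groups. The question was what the small GTPase Rab30 does in fasting liver with and without Cpt2, the mitochondrial enzyme that long-chain fatty acids need for oxidation. Mice were 8 to 10 weeks old and livers were collected at 3 pm. Exon 4 of Rab30 was deleted in all tissues of Rab30KO mice, and Rab30 Ctrl mice were their wild-type littermates. In Rab30L-/- (Rab30 floxed), Cpt2L-/- (Cpt2 floxed) and DKO (both floxed) mice the deletion was made by a Cre transgene under the albumin promoter, which is active in hepatocytes, so that the other cells of the liver keep the genes. The ff;ff mice carried both floxed genes without Cre and were littermates of the DKO mice, and no group is labelled as littermates of the Rab30L-/- or Cpt2L-/- mice.

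Library totals ranged from 11801027 to 24497738 counts. The count of the whole targeted gene followed the labels only in part. Cpt2 stood at 95.2 to 167 counts per 1000000 (CPM) in the libraries labelled Cpt2L-/- and at 128 to 139 CPM in ff;ff, while it was lower in DKO (96.0 to 119.9 CPM) than in Rab30L-/- (169 to 267 CPM). Rab30 stood at 122 to 188 CPM in Cpt2L-/- and 101 to 231 CPM in DKO, above the 25.8 to 44.6 CPM of ff;ff, and at 10.4 to 26.6 CPM in Rab30L-/-, 5.38 to 17.4 CPM in Rab30KO and 6.63 to 30.1 CPM in Rab30 Ctrl. Counts over a whole gene can still come from the exons that a deletion leaves, so groups are named by their labels throughout, and each direction given is one between labelled groups. The hepatocyte marker list was detected in every group with none of its 10 genes at 0, at a summed level of 104866 to 136825 CPM in ff;ff, 90724 to 104736 in Rab30L-/-, 51271 to 60651 in Cpt2L-/- and 66530 to 81413 in DKO. That sum was lower in both groups labelled as lacking Cpt2, and its part in the results was not tested. In whole liver, fewer cells of a type and less RNA per cell cannot be told apart.

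Of the 42 genes, 25 had enough reads to be tested in at least 1 comparison, namely 17 of 21 Ugt and 8 of 21 Sult genes. The remaining 17 reached at most 15 counts in any library, and 7 of them had no count at all (Sult1c1, Sult2a4, Sult2a5, Sult2a6, Sult3a2, Sult6b2 and Ugt2a2). The families differed in how many members had enough reads to be tested. All 7 Ugt2b and both Ugt3a genes were tested, as were 7 of 9 Ugt1a and 5 of 6 Sult1 genes, but 2 of 9 Sult2 genes, 1 of 3 Ugt2a genes and 1 of the 6 genes of Sult3 to Sult6. Per length of gene, the highest Ugt levels over all 24 libraries were those of Ugt2b5 with a mean of 425 fragments per kilobase and 1000000 fragments (FPKM), Ugt2b36 with 269.6 FPKM and Ugt2b1 with 133 FPKM. The highest Sult levels were those of Sult1a1, a phenol sulfotransferase, with 348 FPKM, Sult2a8, a bile acid sulfotransferase of mouse liver, with 211 FPKM, and Sult1d1, which sulfates catecholamines, with 108 FPKM. At a mean of at least 1 CPM, the median coefficient of variation within a group lay between 18.5% and 34.3% for the members and between 15.9% and 21.5% for all genes, depending on the group.

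The summed sulfotransferase level was low in the groups labelled as lacking Cpt2, and the summed glucuronosyltransferase level was not set apart. Summed over the 21 Sult genes, the level was 882 ± 271 FPKM (SD, n = 4) in ff;ff and 809 ± 74.7 FPKM in Rab30L-/-, against 218 ± 60.1 FPKM in Cpt2L-/- and 415 ± 52.6 FPKM in DKO. The 4 libraries labelled Cpt2L-/- spanned 153 to 299 FPKM, the 4 labelled DKO 370.2 to 491 FPKM and those of ff;ff 588 to 1145 FPKM, so these 3 ranges did not meet. Summed over the 21 Ugt genes, the level was 1308 ± 435 FPKM in ff;ff, 1283 ± 292 in Rab30L-/-, 1195 ± 91.4 in Cpt2L-/- and 1224 ± 253 in DKO. The Ugt1a genes and some Ugt2b genes share sequence, so the Ugt sums and the Ugt order above depend on how shared reads were assigned. These Ugt sums overlapped between all 4 groups. Rab30 Ctrl and Rab30KO livers stood at 842 ± 202 and 938 ± 262 FPKM for Sult and at 1495 ± 307 and 1657 ± 72.3 FPKM for Ugt.

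**Figure D1:**
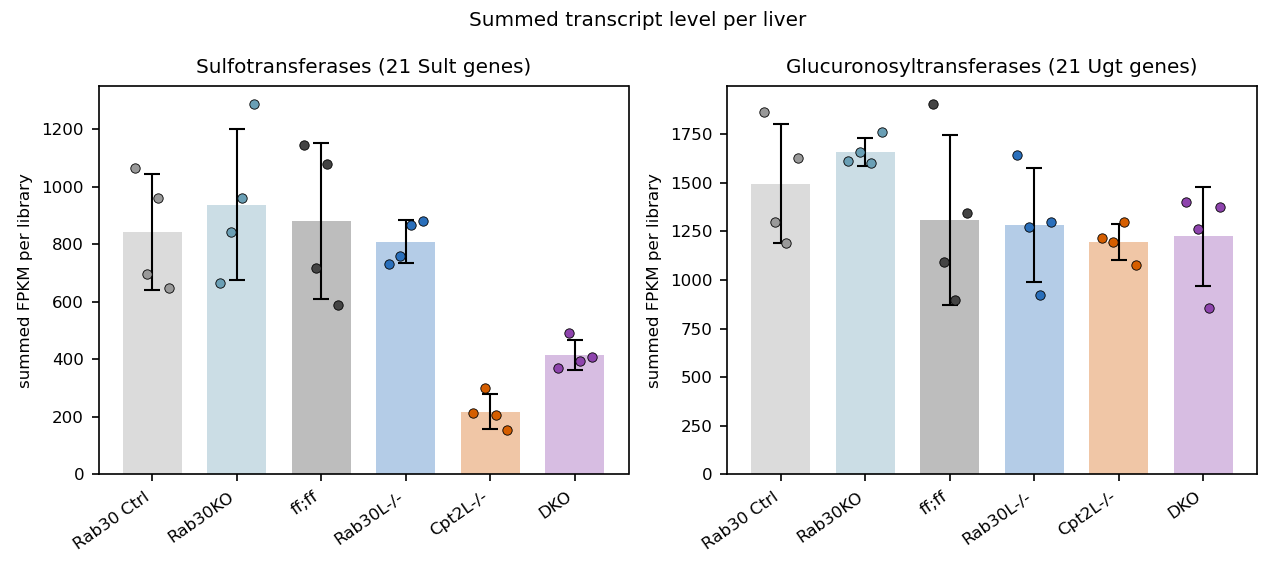
Summed FPKM of the 21 Sult genes (left) and the 21 Ugt genes (right) in each of the 24 libraries, on linear axes. Points are libraries, bars are group means and whiskers are 1 SD (n = 4). The Cpt2L-/- and DKO libraries are the lowest 8 for Sult, and the Ugt sums of these groups overlap those of ff;ff and Rab30L-/-.

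Loss of Cpt2 was compared in 2 pairs of groups that share no library, Cpt2L-/- against ff;ff and DKO against Rab30L-/-. Cpt2L-/- mice differ from ff;ff also in the Cre transgene and in floxed Rab30, and neither pair is labelled as littermates. Loss of Cpt2 cannot be told apart from these differences or from litter. A gene was called at a Benjamini-Hochberg adjusted p below 0.05 in edgeR's quasi-likelihood test over all genes tested and a difference of at least 1.2-fold. In Cpt2L-/- against ff;ff, 10 of 22 tested members were called (2 higher and 8 lower), beside 23.8% of all genes (11.9% higher and 11.9% lower). At an unadjusted p there were 15 members, beside 35.7% of all genes. In DKO against Rab30L-/-, 8 of 22 were called (2 higher and 6 lower), beside 30.7% of all genes (14.9% higher and 15.8% lower), with 13 at an unadjusted p, beside 41.4% of all genes. When Rab30L-/- replicate 4 was left out, 5 were called. The share of members called was 45.5% in the former and 36.4% in the latter comparison. The median log2 difference of the tested members was -0.56 and -0.47 in these comparisons, and that of all genes -0.0035 and -0.012. DKO against ff;ff, which shares its controls with the former comparison, had 7 of 23 members called (2 higher and 5 lower), beside 16.1% of all genes (7.87% higher and 8.24% lower), and 9 at an unadjusted p, beside 29.7% of all genes. By family, 4 of 7 tested Sult genes were called in each of these 2 pairs, all of them lower. Of 15 tested Ugt genes, 4 were lower and 2 higher in Cpt2L-/- against ff;ff, and 2 were lower and 2 higher in DKO against Rab30L-/-.

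**Figure D2:**
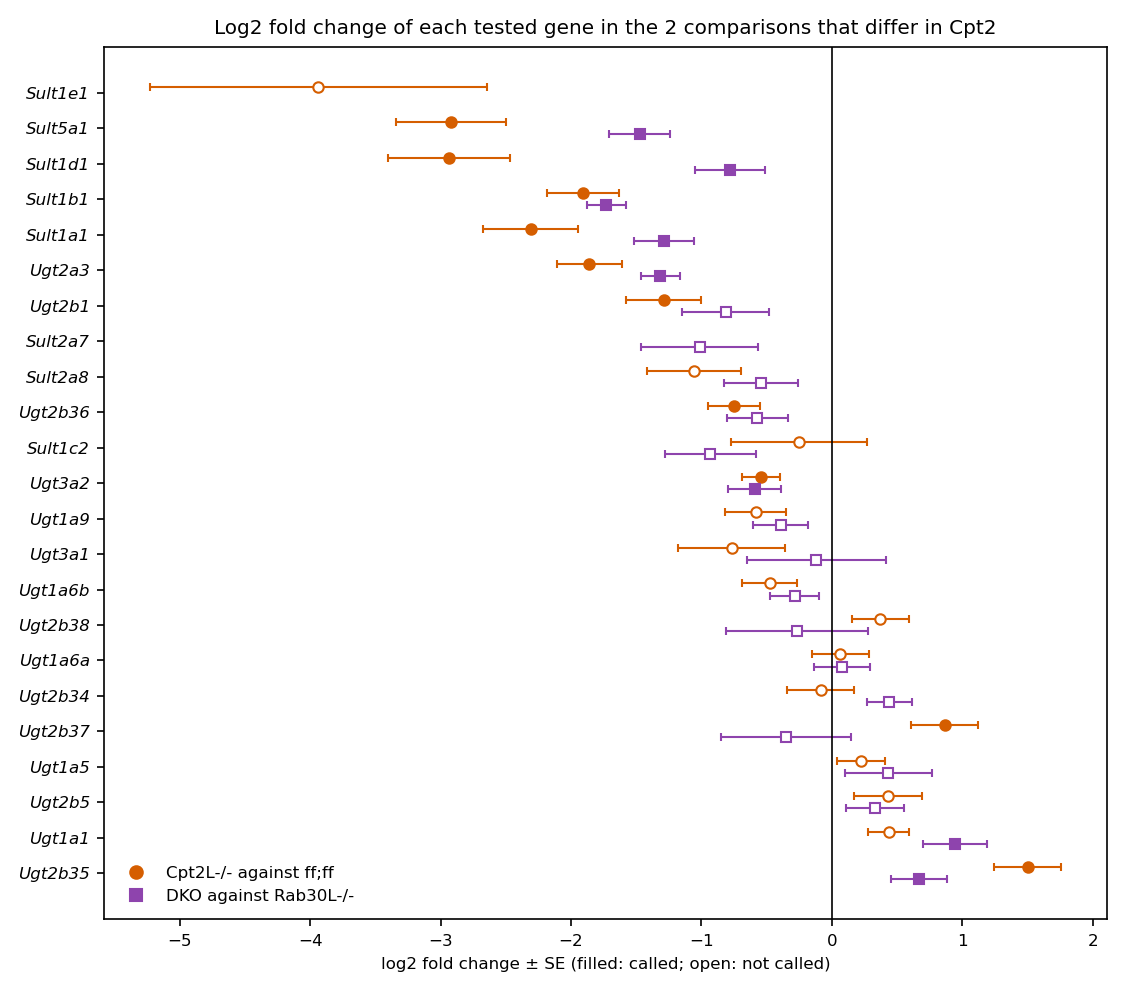
Log2 fold change with its standard error for each tested member in Cpt2L-/- against ff;ff (circles) and DKO against Rab30L-/- (squares), 4 libraries a group. Filled symbols passed an adjusted p below 0.05 and 1.2-fold in edgeR and open ones did not. The called Sult genes lie on the lower side in both comparisons, whereas called Ugt genes lie on both sides.

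The promoters of 6 members are shown because 4 of these genes (Sult1a1, Sult1b1, Sult1d1 and Ugt2a3) were called lower in both pairs, Ugt2b35 was called higher in both, and Ugt1a1 was called higher in DKO against Rab30L-/- and not in Cpt2L-/- against ff;ff. Sult5a1 and Ugt3a2 were also called lower in both pairs and are not shown. Sult5a1 held neither of the 2 motifs searched below, and Ugt3a2 matched no RefSeq promoter. Each line gives the 250 bases before a RefSeq start site on assembly GRCm38.p6, read 5′ to 3′ on the strand of the gene. Capitals mark GTTAAT or its reverse complement ATTAAC, one arm of the palindrome that HNF1 binds, and AGGTCA or its reverse complement TGACCT, the core site of many nuclear receptors. Both strands were searched, and no matches of the 2 motifs overlap in these windows.
Sult1a1: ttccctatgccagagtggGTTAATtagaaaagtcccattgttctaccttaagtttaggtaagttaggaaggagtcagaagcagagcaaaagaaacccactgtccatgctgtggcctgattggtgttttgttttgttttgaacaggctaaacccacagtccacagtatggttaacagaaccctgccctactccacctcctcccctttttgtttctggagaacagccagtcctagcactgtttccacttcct
Sult1b1: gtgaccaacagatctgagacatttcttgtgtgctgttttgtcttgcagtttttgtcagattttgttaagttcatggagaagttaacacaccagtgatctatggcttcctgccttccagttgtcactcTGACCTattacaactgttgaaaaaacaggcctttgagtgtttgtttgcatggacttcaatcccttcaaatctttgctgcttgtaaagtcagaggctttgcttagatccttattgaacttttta
Sult1d1: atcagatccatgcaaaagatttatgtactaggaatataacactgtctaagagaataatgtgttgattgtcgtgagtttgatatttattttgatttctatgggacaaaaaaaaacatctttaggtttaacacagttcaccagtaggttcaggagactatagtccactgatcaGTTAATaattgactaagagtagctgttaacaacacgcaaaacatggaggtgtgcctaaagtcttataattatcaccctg
Ugt2a3: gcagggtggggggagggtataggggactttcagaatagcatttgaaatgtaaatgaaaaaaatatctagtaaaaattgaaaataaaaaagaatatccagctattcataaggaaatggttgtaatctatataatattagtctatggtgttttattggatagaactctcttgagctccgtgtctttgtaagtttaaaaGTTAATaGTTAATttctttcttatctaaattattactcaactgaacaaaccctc
Ugt2b35: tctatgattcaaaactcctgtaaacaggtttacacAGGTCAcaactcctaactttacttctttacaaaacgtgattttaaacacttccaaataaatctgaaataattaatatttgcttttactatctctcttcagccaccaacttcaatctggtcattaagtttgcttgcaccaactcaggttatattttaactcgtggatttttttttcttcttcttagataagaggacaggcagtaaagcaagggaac
Ugt1a1: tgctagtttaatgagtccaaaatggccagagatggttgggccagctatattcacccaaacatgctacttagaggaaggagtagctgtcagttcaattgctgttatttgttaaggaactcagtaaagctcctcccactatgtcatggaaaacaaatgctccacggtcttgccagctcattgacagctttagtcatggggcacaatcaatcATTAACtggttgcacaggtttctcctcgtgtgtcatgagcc

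These windows are chr7:126676419-126676668 (minus strand), chr5:87538196-87538445 (minus strand), chr5:87569007-87569256 (minus strand), chr5:87337196-87337445 (minus strand), chr5:87000610-87000859 (plus strand) and chr1:88211709-88211958 (plus strand). Sult1b1 has another RefSeq start site, and the window before that one held neither motif. Of the 36 members that matched a RefSeq promoter, 13 (36.1%) held GTTAAT before at least 1 start site, against 7.49% of 27025 genes, and 10 (27.8%) held AGGTCA, against 15.8% of genes. Of the 6 members called lower in both pairs, Sult1a1, Sult1d1 and Ugt2a3 held GTTAAT, Sult1b1 and Sult5a1 did not, and Ugt3a2 was not matched. Ugt1a1, which rose in DKO against Rab30L-/-, held it too. Of the 13 holders, 5 (Sult2a3, Sult2a4, Sult2a5, Sult2a6 and Sult3a2) had at most 1 count in any library. A match of 6 letters describes the sequence and is not a measured binding site.

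Sult1a1 had the highest mean FPKM of the Sult genes over all 24 libraries. Within Cpt2L-/-, Sult2a8 stood at a mean of 94.0 FPKM, beside 93.1 FPKM for Sult1a1. Sult1a1 measured 813, 506, 939 and 462 CPM in the 4 ff;ff livers and 132, 224, 132 and 65.3 CPM in the 4 Cpt2L-/- livers. It measured 449, 652, 958 and 739.6 CPM in Rab30L-/- and 219, 349, 329 and 246 CPM in DKO. Every liver of the groups labelled as lacking Cpt2 lay below every liver of its comparison group. By edgeR, the log2 difference amounted to -2.31 ± 0.37 in Cpt2L-/- against ff;ff (SE, adjusted p = 0.00106), a 4.96-fold lower level, and -1.28 ± 0.23 in DKO against Rab30L-/- (adjusted p = 0.00183). Of the exonic bases of Sult1a1, 4.05% overlap the antisense gene Sgf29.

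Sult1b1, which sulfates thyroid hormone among other substrates, measured 34.6, 26.2, 25.5 and 18.8 CPM in ff;ff and 5.06, 11.1, 7.5 and 4.55 CPM in Cpt2L-/-. It measured 25.6, 30.3, 23.0 and 32.2 CPM in Rab30L-/- and 7.18, 8.51, 9.29 and 8.48 CPM in DKO. Neither pair of groups overlapped, and the 2 groups labelled as lacking Cpt2 lay in the same low range. The edgeR fit gave a log2 fold change of -1.91 ± 0.28 in the former pair (adjusted p = 3.61e-04) and -1.73 ± 0.15 in the latter (adjusted p = 2.97e-05).

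Sult1d1 measured 504, 380.0, 777 and 289 CPM in ff;ff and 70.7, 111, 45.9 and 28.9 CPM in Cpt2L-/-. It measured 209.9, 265, 166 and 267 CPM in Rab30L-/- and 86.6, 90.7, 177 and 175 CPM in DKO. The Cpt2L-/- livers lay far below ff;ff, but DKO and Rab30L-/- overlapped at their edges, and all Rab30L-/- livers lay below all ff;ff livers. In edgeR the log2 fold change came to -2.94 ± 0.47 in Cpt2L-/- against ff;ff (adjusted p = 0.00196) and -0.78 ± 0.27 in DKO against Rab30L-/- (adjusted p = 0.0499). The latter call was lost when Rab30L-/- replicate 1, 2 or 4 or DKO replicate 1 or 2 was left out, with log2 fold changes of -0.94 to -0.61 and adjusted p of 0.0336 to 0.120 over all 8 omissions. It was also lost with DESeq2 size factors (adjusted p = 0.0508, edgeR), when genes with at least 1 count in all were kept (adjusted p = 0.150, edgeR) and in 1 fit of all 24 libraries (adjusted p = 0.142, edgeR). The interaction of Rab30 and Cpt2 loss asks whether the difference of DKO from Cpt2L-/- is the same as that of Rab30L-/- from ff;ff. Sult1d1 was the 1 of 24 tested members called for it, beside 4.06% of all genes (5 members and 21.7% of all genes at an unadjusted p), with a log2 difference of 2.16 ± 0.56 (adjusted p = 0.0461, edgeR). Leaving out any 1 library removed that call in 13 of 16 cases, all except those of DKO replicate 1, ff;ff replicate 4 and Cpt2L-/- replicate 2, with log2 differences of 1.84 to 2.57 and adjusted p of 0.0171 to 0.0890 over the 16.

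Sult5a1 measured 49.1, 22.4, 34.7 and 48.0 CPM in ff;ff and 2.11, 5.53, 9.38 and 3.56 CPM in Cpt2L-/-. It measured 21.1, 21.6, 26.3 and 36.9 CPM in Rab30L-/- and 7.53, 6.70, 11.5 and 12.2 CPM in DKO. Again no liver of a group labelled as lacking Cpt2 reached its comparison group. By edgeR, the log2 difference amounted to -2.92 ± 0.42 (adjusted p = 7.82e-04) and -1.47 ± 0.24 (adjusted p = 0.00109). The Rab30 Ctrl livers measured 9.62, 8.34, 7.01 and 15.1 CPM, a range that overlapped those of the Cpt2L-/- and the DKO livers. The Rab30KO livers measured 28.6, 4.85, 67.3 and 9.18 CPM, from below the lowest Rab30 Ctrl liver to above the highest ff;ff liver. The comparison of ff;ff against Rab30 Ctrl gave a log2 fold change of 1.97 ± 0.29 (adjusted p = 0.0107, edgeR).

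Sult2a8 was not called by edgeR in any comparison. It measured 1161, 634, 262 and 461 CPM in ff;ff and 298, 303, 313 and 307 CPM in Cpt2L-/-, a log2 fold change of -1.06 ± 0.36 (adjusted p = 0.0581, edgeR). The Cpt2L-/- livers were close to each other, whereas the ff;ff livers were spread widely and their lowest, replicate 3, lay below all Cpt2L-/- livers. Without ff;ff replicate 3 it was called, at -1.31 (adjusted p = 0.00226, edgeR), as it was with all libraries by DESeq2 (adjusted p = 0.00727) and limma-voom (adjusted p = 0.0115). The estrogen sulfotransferase Sult1e1, named after its values were seen, had a log2 fold change of -3.94 ± 1.29 (adjusted p = 0.0633, edgeR) and was not called, with 1.40, 2.19, 16.7 and 0.317 CPM in ff;ff and 0.192, 0.755, 0.194 and 0.187 CPM in Cpt2L-/-. The value rests largely on ff;ff replicate 3, without which it was -1.96 ± 0.68 (adjusted p = 0.0501, edgeR). DESeq2 called it with all libraries (adjusted p = 0.00498), and so did edgeR without ff;ff replicate 4 (adjusted p = 0.0159).

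**Figure D3:**
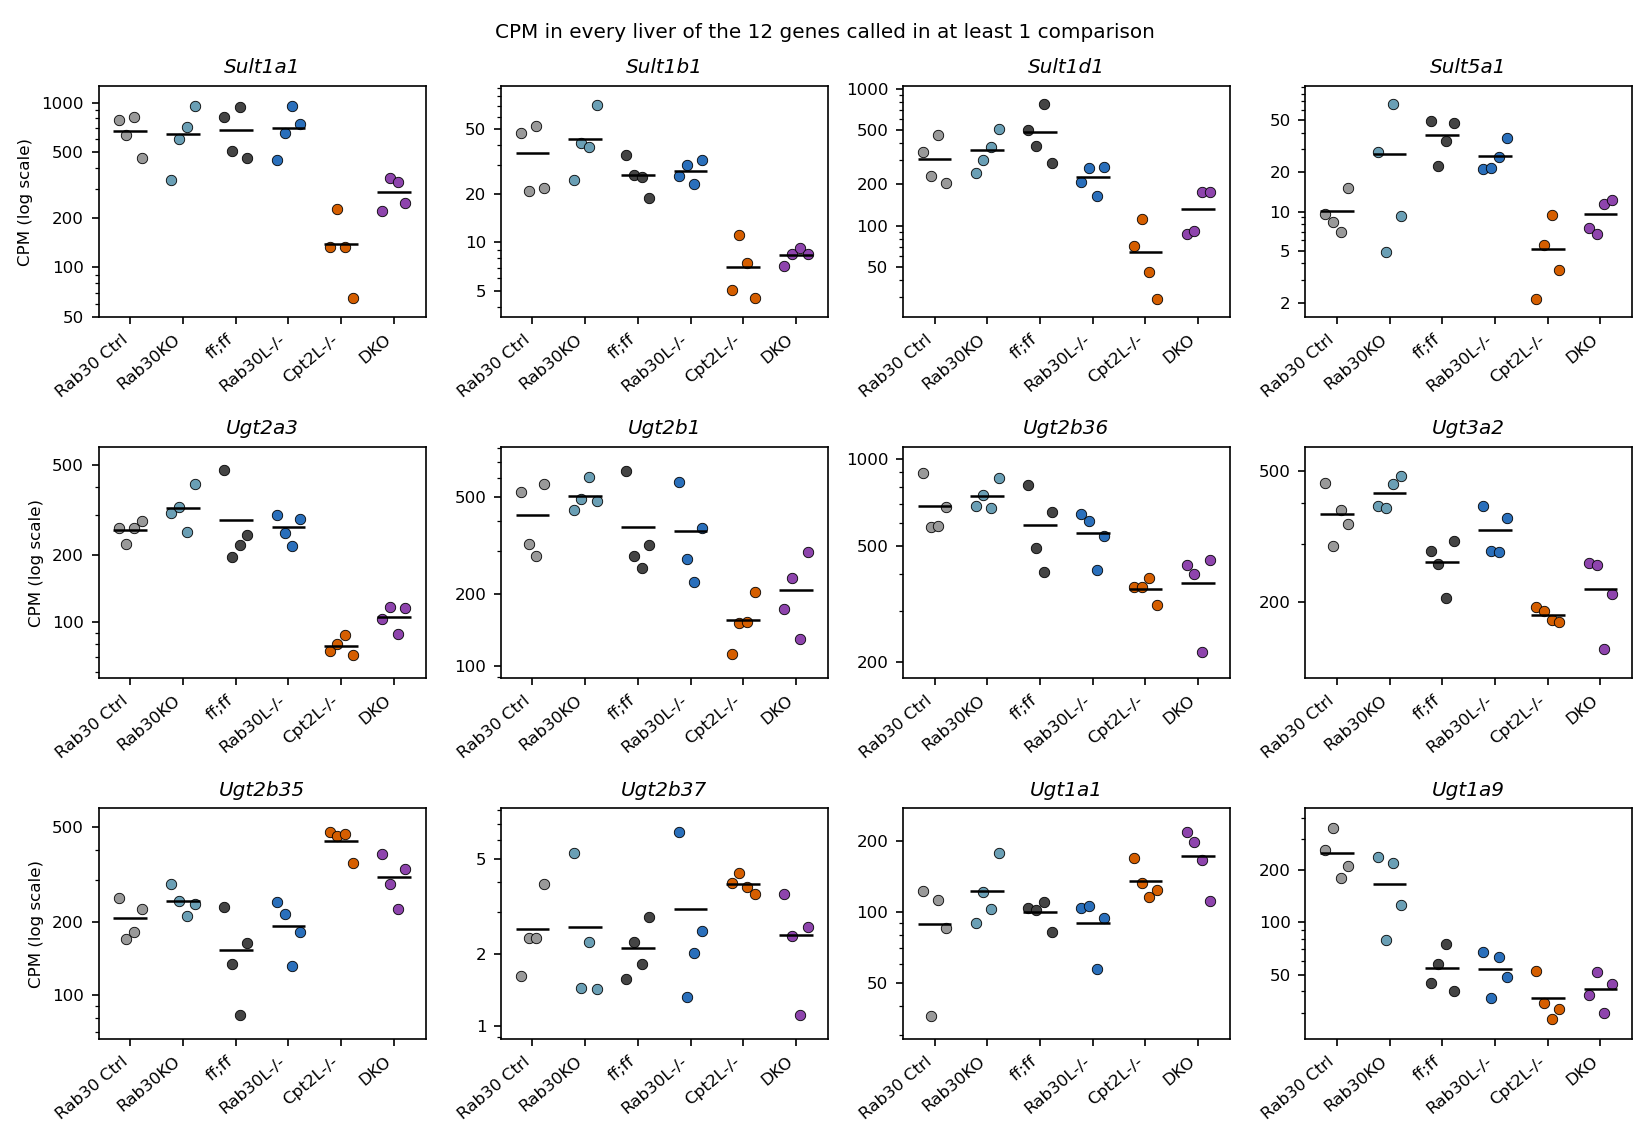
CPM of the 12 members called in at least 1 comparison, in every library (points) with the group mean (line, n = 4), on logarithmic axes that differ between panels. Sult1a1, Sult1b1, Sult5a1 and Ugt2a3 are lower in every Cpt2L-/- liver than in any ff;ff liver and in every DKO liver than in any Rab30L-/- liver, Sult1d1 overlaps between DKO and Rab30L-/-, Ugt2b35 is high in Cpt2L-/-, and Ugt1a9 is higher in every Rab30 Ctrl and Rab30KO liver than in any liver of the other 4 groups.

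Ugt2 and Sult1 genes lie side by side on chromosome 5, where 13 members (10 Ugt2 and 3 Sult1) fill 702 kilobases from position 86889767 to 87591594 of GRCm38. Neighbours in this cluster moved in opposite directions in Cpt2L-/- against ff;ff. In the order of the chromosome, Ugt2b34 was not called, Ugt2b1 was lower, Ugt2b35 higher and Ugt2b36 lower, Ugt2b5 was not called, Ugt2b37 was higher, Ugt2a3 lower and Ugt2b38 not called, Sult1b1 and Sult1d1 were both lower, and Sult1e1 at the other end was not called. Of the 11 members of the cluster that were tested in any comparison, 7 were called in this one, beside 23.8% of all genes. In DKO against Rab30L-/-, 4 of 10 tested were called, beside 30.7% of all genes, namely Ugt2b35 on the higher and Ugt2a3, Sult1b1 and Sult1d1 on the lower side. Ugt2b1, Ugt2b36 and Ugt2b37 were not called there, and the value of Ugt2b37 lay below 0. In Cpt2L-/- against ff;ff, the group sums of the Ugt2b genes alone were 977 ± 373 FPKM in ff;ff and 992 ± 91.1 FPKM in Cpt2L-/-.

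**Figure D4:**
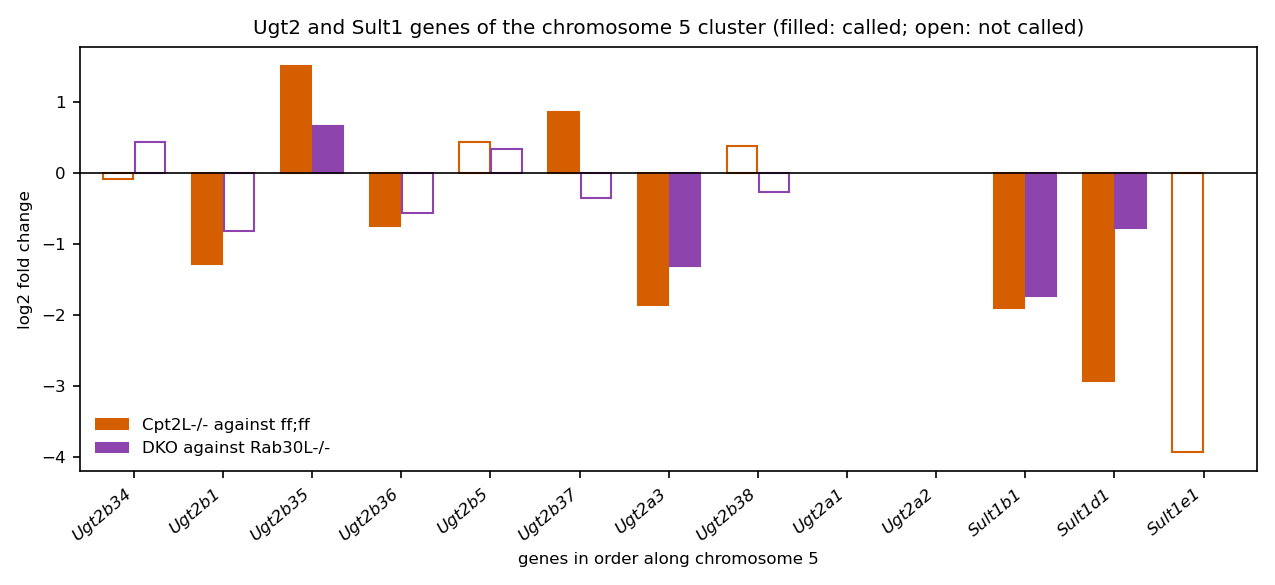
Log2 fold change of the 13 members of the chromosome 5 cluster in gene order (not to scale), in Cpt2L-/- against ff;ff and DKO against Rab30L-/-. Filled bars were called in edgeR and open bars were not, and Ugt2a1 and Ugt2a2 were not tested. Ugt2b35 lies above 0 between Ugt2b1 and Ugt2b36, which lie below 0.

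Ugt2a3, the only Ugt2a gene with more than 1 count in a library, measured 474, 195, 219.6 and 245 CPM in ff;ff and 75.0, 80.0, 88.4 and 71.5 CPM in Cpt2L-/-. It measured 300.4, 250.1, 218 and 288 CPM in Rab30L-/- and 103, 117, 88.8 and 115 CPM in DKO. Both pairs were apart, with the Cpt2L-/- and DKO livers in narrow low ranges that also did not overlap each other. The edgeR fit gave a log2 fold change of -1.86 ± 0.25 (adjusted p = 1.99e-04) in the former pair and -1.32 ± 0.15 (adjusted p = 1.27e-04) in the latter.

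Ugt2b1, one of the steroid and drug conjugating Ugt2b enzymes, measured 644, 287, 255 and 318 CPM in ff;ff and 112, 151, 153 and 204 CPM in Cpt2L-/-, without overlap. In edgeR the log2 fold change came to -1.29 ± 0.29 (adjusted p = 0.00684), and in DKO against Rab30L-/- it was -0.81 ± 0.33, which was not called (adjusted p = 0.0922). Ugt2b36 measured 817, 493, 406 and 659 CPM in ff;ff and 362, 362, 387 and 312 CPM in Cpt2L-/-. The highest Cpt2L-/- liver lay just under the lowest ff;ff liver, with a log2 fold change of -0.75 ± 0.20 (adjusted p = 0.0160, edgeR). Without Cpt2L-/- replicate 4 the adjusted p of Ugt2b36 was 0.0574 in edgeR. In the other pair it measured 649, 612, 413 and 543 CPM in Rab30L-/- and 430.0, 400.4, 216 and 448 CPM in DKO, which overlapped. It was not called there, at -0.57 ± 0.23 (adjusted p = 0.0828, edgeR), nor in DKO against ff;ff, at -0.67 ± 0.26 (adjusted p = 0.103, edgeR).

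Ugt2b35 went the other way. It measured 232, 134, 82.2 and 165 CPM in ff;ff and 476, 459, 465 and 352 CPM in Cpt2L-/-. It measured 243, 218, 131 and 183 CPM in Rab30L-/- and 383, 290.0, 228 and 334 CPM in DKO. All Cpt2L-/- livers lay above all ff;ff livers, while the lowest DKO liver lay within the Rab30L-/- range. By edgeR, the log2 difference amounted to 1.5 ± 0.26 (adjusted p = 0.00107), a 2.83-fold higher level, and 0.67 ± 0.21 in DKO against Rab30L-/- (adjusted p = 0.0348). The latter call was lost when any 1 of Rab30L-/- replicates 2, 3 and 4 or DKO replicates 1, 2 and 4 was left out, with log2 fold changes of 0.51 to 0.81 and adjusted p of 0.0171 to 0.0869 over 8 omissions. Ugt2b35 and Ugt2b36 share no or nearly no stretches of 50 bases with other members (0% and 0.285% of their transcript).

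The ratio of the 2 neighbours within a library needs no scaling between libraries. Ugt2b35 to Ugt2b36, a pair picked after the values were seen, was 0.284, 0.273, 0.202 and 0.251 in the ff;ff livers and 1.31, 1.27, 1.2 and 1.13 in the Cpt2L-/- livers. It was 0.375, 0.356, 0.318 and 0.338 in Rab30L-/- and 0.891, 0.724, 1.05 and 0.744 in DKO. The ratio was thus higher in every liver labelled as lacking Cpt2 than in any other of these livers, by 2.29 on the log2 scale in Cpt2L-/- against ff;ff and by 1.28 in DKO against Rab30L-/-. The difference was -0.54 for DKO against Cpt2L-/-, whose ratios did not overlap, 0.47 for Rab30L-/- against ff;ff, -0.29 for ff;ff against Rab30 Ctrl and 0.12 for Rab30KO against Rab30 Ctrl. In an exact two-sided permutation test of the log2 ratios, these 6 differences had p = 0.0286, the smallest that 4 against 4 livers can give, except the last with p = 0.543. After adjustment over the 12 differences tested for this and 1 further ratio, none was below 0.05 (smallest adjusted p = 0.0571, exact test). Since the pair was picked for its opposite directions, the ratios are a description and these p-values support nothing. Ugt2b5 made up 28.8% ± 3.37 of the summed Ugt FPKM in ff;ff and 43.6% ± 3.53 in Cpt2L-/- (SD, n = 4), and Ugt2b35 3.48% ± 0.459 and 11% ± 0.934, while the share of Ugt2b36 was 22.6% ± 1.12 and 14.6% ± 0.314 and that of Ugt2a3 10.3% ± 1.88 and 3.15% ± 0.122.

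**Figure D5:**
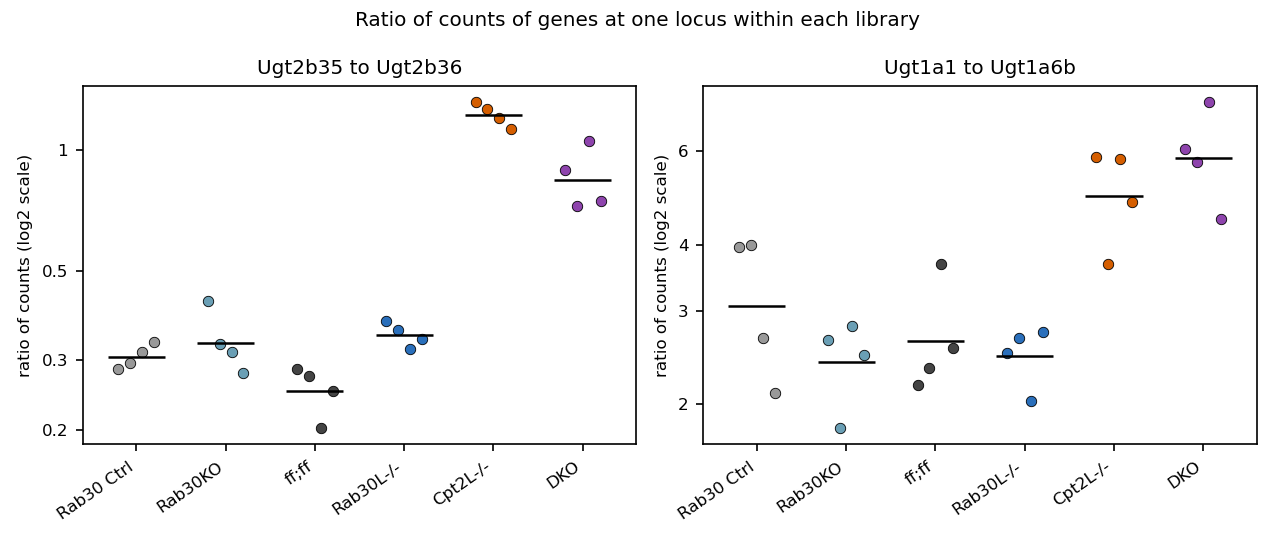
Ratio of the counts of Ugt2b35 to Ugt2b36 (left) and of Ugt1a1 to Ugt1a6b (right) in every library, on log2 axes, with geometric means as lines (n = 4 a group). The left ratio lies between 0.20 and 0.42 in the 16 libraries of the other 4 groups and between 0.72 and 1.31 in Cpt2L-/- and DKO.

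Ugt2b37, expressed at a low level, measured 1.57, 2.24, 1.81 and 2.85 CPM in ff;ff and 3.97, 4.34, 3.82 and 3.56 CPM in Cpt2L-/-, with a log2 fold change of 0.86 ± 0.26 (adjusted p = 0.0265, edgeR). The groups did not overlap, but the call was lost without ff;ff replicate 2 or 3 or any 1 Cpt2L-/- replicate, with log2 fold changes of 0.75 to 1.03 and adjusted p of 0.0207 to 0.0789. In DKO against Rab30L-/- the value was -0.35 ± 0.50 (adjusted p = 0.630, edgeR). Of its transcript, 18.3% of 50-base stretches also occur in another member, so some of its reads may belong to a neighbour. The most abundant glucuronosyltransferase, Ugt2b5, was not called by edgeR in any comparison, with 1107, 533, 407 and 779.6 CPM in ff;ff and 906, 907, 1172 and 856 CPM in Cpt2L-/- and a log2 fold change of 0.43 ± 0.26 (adjusted p = 0.265, edgeR). It was called without ff;ff replicate 1, at 0.73 (adjusted p = 0.0274, edgeR), and by limma-voom (adjusted p = 0.0444). For Ugt2b5, 41.7% of 50-base stretches are shared, mostly with Ugt2b38.

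The 9 Ugt1a genes are read from 1 locus on chromosome 1 (88055388 to 88220002, GRCm38) by splicing a first exon of each gene to the same later exons. The annotation GENCODE M21 gives 3 exons of 132, 88 and 220 bases that belong to all 9, and between 50.3% and 82.7% of the exonic bases of each gene belong to another gene as well, among them the antisense gene Gm20528. Their counts therefore depend on how shared reads were assigned, which is not given in the sources used here, and are uncertain. Ugt1a1, the enzyme that conjugates bilirubin, measured 104, 105, 57.4 and 93.9 CPM in Rab30L-/- and 219, 197, 165 and 111 CPM in DKO. It measured 103, 102, 110.0 and 82.2 CPM in ff;ff and 169, 133, 115 and 124 CPM in Cpt2L-/-. Both pairs were apart, with the higher values in the livers labelled as lacking Cpt2. The edgeR fit gave a log2 fold change of 0.94 ± 0.25 in DKO against Rab30L-/- (adjusted p = 0.0158) and 0.43 ± 0.16 in Cpt2L-/- against ff;ff, which was not called (adjusted p = 0.0665). In DKO against ff;ff it was 0.79 ± 0.20 (adjusted p = 0.0178, edgeR), a call lost without DKO replicate 1 or ff;ff replicate 4 (adjusted p of 0.0038 to 0.0631 over the 8 omissions).

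Of the other Ugt1a genes tested in these pairs, none was called by edgeR with no library left out. Ugt1a6b, named after its values were seen, had a log2 fold change of -0.48 ± 0.21 in Cpt2L-/- against ff;ff (adjusted p = 0.117, edgeR) and -0.29 ± 0.19 in DKO against Rab30L-/- (adjusted p = 0.268, edgeR), values below 0 where those of Ugt1a1 were above 0. The ratio of Ugt1a1 to Ugt1a6b was 2.50, 2.66, 2.03 and 2.74 in Rab30L-/- and 6.06, 5.74, 7.42 and 4.47 in DKO, which did not overlap, a log2 difference of 1.24. It was 2.17, 2.34, 3.68 and 2.55 in ff;ff and 5.85, 3.67, 5.81 and 4.81 in Cpt2L-/-, which overlapped at their edges, a log2 difference of 0.91. By the same exact test, the differences in the former and the latter pair had p = 0.0286 and p = 0.0571, or 0.0571 and 0.0980 after adjustment over the 12, and this pair too was picked after its values were seen.

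Ugt3a2, whose human counterpart uses UDP-glucose and UDP-xylose in place of UDP-glucuronic acid, measured 285, 261, 205 and 305 CPM in ff;ff and 193, 188, 176 and 173 CPM in Cpt2L-/-. It measured 390.5, 286, 284 and 359 CPM in Rab30L-/- and 261, 259, 143 and 212 CPM in DKO. In both pairs the groups were apart, by little. In edgeR the log2 fold change came to -0.55 ± 0.15 (adjusted p = 0.0163) and -0.59 ± 0.20 (adjusted p = 0.0441). The former call was lost without ff;ff replicate 4 or Cpt2L-/- replicate 4 (adjusted p of 0.0032 to 0.0578 over 8 omissions) and the latter without Rab30L-/- replicate 1, 2 or 4 or DKO replicate 3 or 4 (adjusted p of 0.0401 to 0.105).

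In DKO against ff;ff the called members were Sult1a1, Sult1b1, Sult1d1, Sult5a1 and Ugt2a3, which fell by 1.26, 1.65, 1.89, 2.02 and 1.42 on the log2 scale, and Ugt2b35 and Ugt1a1, which rose by 1.0 and 0.79. Ugt2b35 was no longer called without DKO replicate 1, 2 or 4 or ff;ff replicate 2 or 4, with log2 fold changes of 0.80 to 1.27 and adjusted p of 0.0077 to 0.0793 in edgeR. This comparison shares its ff;ff livers with Cpt2L-/- against ff;ff and its DKO livers with DKO against Rab30L-/-.

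Besides Sult2a8 and Ugt2b5, 11 tested members were called in no comparison by edgeR, namely Sult1c2, Sult1e1, Sult2a7, Ugt1a5, Ugt1a6a, Ugt1a6b, Ugt1a7c, Ugt1a10, Ugt2b34, Ugt2b38 and Ugt3a1. Those with enough reads had log2 fold changes from -3.94 (Sult1e1) to 0.37 (Ugt2b38) in Cpt2L-/- against ff;ff and from -1.01 (Sult2a7) to 0.44 (Ugt2b34) in DKO against Rab30L-/-. Sult2a7, another Sult2 gene with at most 93 counts in a library, was filtered out of the former pair, and it was called lower there when genes with at least 1 count in all were kept, at -2.06 (adjusted p = 0.00164, edgeR).

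Loss of Rab30 without loss of Cpt2 was asked in 2 comparisons. Rab30L-/- mice differ from ff;ff also in the Cre transgene and in floxed Cpt2, and are not labelled as their littermates. Loss of Rab30 cannot be told apart from these differences there. In Rab30L-/- against ff;ff, 0 of 24 tested members were called by edgeR, beside 0.479% of all genes. At an unadjusted p below 0.05 there were 2, beside 11.2% of all genes, and DESeq2's Wald test called 1, Sult1d1, and limma-voom none. The edgeR log2 fold change of Sult1d1 there was -1.11 ± 0.29 (adjusted p = 0.164). In whole-body Rab30KO against Rab30 Ctrl, 0 of 25 members were called by edgeR, beside 0.022% of all genes, with 0 at an unadjusted p below 0.05 (2.21% of all genes) and 0 by DESeq2 and limma-voom. The median log2 difference of the members was -0.02 in the former and 0.23 in the latter comparison. Sult1a1 stood at 786, 635, 812 and 463 CPM in Rab30 Ctrl and 338, 597, 706 and 950.2 CPM in Rab30KO, which overlapped over most of their range.

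Loss of Rab30 in livers labelled as lacking Cpt2 was asked in DKO against Cpt2L-/-. No member of 21 tested was called by edgeR, beside 2.71% of all genes, with 8 at an unadjusted p below 0.05 (21.2% of all genes) and 3 each by DESeq2 and limma-voom, which named the same 3 genes, Sult1a1, Sult2a8 and Ugt2a3. The median log2 difference of the members was 0.27, and that of all genes -0.0031. Sult1a1 had a log2 fold change of 1.05 ± 0.33 (adjusted p = 0.115, edgeR), Sult2a8 of 0.76 ± 0.21 (adjusted p = 0.0831, edgeR) and Ugt2a3 of 0.44 ± 0.12 (adjusted p = 0.0748, edgeR). Every DKO liver lay above every Cpt2L-/- liver for Ugt2a3. Sult2a8 measured 575, 671, 281 and 524 CPM in DKO, where replicate 3 lay below all Cpt2L-/- livers and the other 3 above them. Without DKO replicate 3, Sult2a8 and Ugt2a3 were called by edgeR, at 0.96 (adjusted p = 0.0035) and 0.51 (adjusted p = 0.0384). Without Cpt2L-/- replicate 2, Sult1a1 was called at 1.40 (adjusted p = 0.0480, edgeR).

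The 2 control groups, littermates of different knockouts and with no gene labelled as lost, were compared to show what differs without a deletion. In ff;ff against Rab30 Ctrl, 2 of 25 members were called, beside 0.949% of all genes, and 6 at an unadjusted p, beside 13.2% of all genes. One was Sult5a1, described above. The other was Ugt1a9, which conjugates phenols and measured 262, 348, 180.4 and 211 CPM in Rab30 Ctrl and 44.7, 57.4, 75.3 and 40.5 CPM in ff;ff. Its groups did not overlap, with a log2 fold change of -2.17 ± 0.25 (adjusted p = 0.00311, edgeR). The Rab30KO livers measured 238, 78.8, 219.7 and 126 CPM, while the Rab30L-/-, Cpt2L-/- and DKO libraries stayed between 27.8 and 67.3 CPM. Ugt1a9 was not called with loss of Cpt2, at -0.58 ± 0.24 in Cpt2L-/- against ff;ff (adjusted p = 0.0948, edgeR) and -0.39 ± 0.21 in DKO against Rab30L-/- (adjusted p = 0.179, edgeR). Without Cpt2L-/- replicate 1 it was called lower in the former pair, at -0.82 (adjusted p = 0.0198, edgeR). The summed level of the 9 Ugt1a genes, which includes Ugt1a9, stood at 174 ± 16.4 FPKM in Rab30 Ctrl and 162 ± 20.8 in Rab30KO, against 94.7 ± 13.6 in ff;ff, 87.5 ± 13.0 in Rab30L-/-, 97.8 ± 19.0 in Cpt2L-/- and 119 ± 26.0 in DKO, where the 2 highest DKO livers lay above the lowest Rab30KO liver. Litter, floxed alleles and any difference in handling cannot be told apart here.

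Conjugation needs activated donors, and the genes around their supply and use were counted beside the 23.8% and 30.7% of all genes called in these pairs. Of 9 tested genes for sulfate uptake, PAPS supply and the use of PAPS in the Golgi, 0 were higher and 4 lower in Cpt2L-/- against ff;ff, and 1 was higher and 4 were lower in DKO against Rab30L-/-. Papss2, which makes PAPS, had a log2 fold change of -1.18 ± 0.18 (adjusted p = 3.75e-04, edgeR) and -0.89 ± 0.15 (adjusted p = 0.00113, edgeR), and the sulfate transporter Slc26a1 one of -1.57 ± 0.19 (adjusted p = 6.96e-05, edgeR) and -1.07 ± 0.20 (adjusted p = 0.00244, edgeR). The others called were Papss1 and Tpst1 in the former pair, and Slc35b2, Tpst1 and, on the higher side, Impad1 in the latter. Of 6 tested genes around UDP-glucuronic acid, Ugdh, which makes it, rose in both pairs, by 1.89 ± 0.21 (adjusted p = 4.10e-05, edgeR) and 1.57 ± 0.20 (adjusted p = 2.41e-04, edgeR) on the log2 scale. Gusb, the lysosomal glucuronidase, was lower in the former pair and Ugp2, which makes UDP-glucose, higher in the latter.

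Among 10 transporters of conjugates and bile acids, 1 was higher and 3 were lower in Cpt2L-/- against ff;ff, and 2 were higher and 3 lower in DKO against Rab30L-/-. The uptake carrier Slco1a4 fell in both (-1.97 ± 0.54 and -1.81 ± 0.23 on the log2 scale), as did Slc10a1, which takes up bile acids (-1.10 ± 0.18 and -0.74 ± 0.16). The efflux pump Abcc3 rose in the former (0.79 ± 0.27), and Abcc4 and Abcg2 rose in the latter (1.40 ± 0.41 and 1.0 ± 0.24). Of 16 tested transcription factors and cofactors known to act on these families, 1 was higher and 2 were lower in the former pair and 1 higher and 5 lower in the latter. Nr0b2 (SHP), a repressor induced by bile acids, was lower in both, at -3.94 ± 0.53 (adjusted p = 5.05e-04, edgeR) and -3.37 ± 0.78 (adjusted p = 0.0156, edgeR), whereas Nr1i3 (CAR), a xenobiotic receptor, was higher in the former (1.12 ± 0.29) and lower in the latter (-0.72 ± 0.19).

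Target lists of these receptors were counted in the same 2 pairs. Targets of Ppara, the receptor for fatty acids, were called higher for 11 of 15 tested genes and lower for 0 in Cpt2L-/- against ff;ff, and 12 and 0 of 15 in DKO against Rab30L-/-. Targets of Nrf2, the oxidative stress factor, were higher for 8 and lower for 1 of 11 in the former and higher for 5 and lower for 1 of 11 in the latter, with Gsta1 at 4.87 ± 0.60 and 4.70 ± 0.65 on the log2 scale. Targets of the receptors CAR and PXR were higher for 0 and lower for 5 of 11 in the former, among them Cyp3a11 at -3.23 ± 0.22, and higher for 1 and lower for 3 of 11 in the latter. Targets of the aryl hydrocarbon receptor were higher for 1 and lower for 1 of 5 in the former and 2 and 1 of 5 in the latter. These are counts beside the 23.8% and 30.7% of all genes called, and no link from any regulator to a member was tested.

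Many Sult and Ugt genes differ between the sexes and across the liver lobule, so the lists for both were counted in the same pairs, beside the 23.8% and 30.7% of all genes called. Of the genes known to be higher in male liver, 0 were higher and 6 lower of 13 tested in Cpt2L-/- against ff;ff, and 2 and 3 of 14 in DKO against Rab30L-/-. Of those known to be higher in female liver, 0 and 0 of 7 were called in the former and 0 and 2 of 7 in the latter. Xist reached at most 0.406 CPM in any library, and Y-linked genes were read in all 24. Pericentral genes were higher for 1 and lower for 8 of 12, and periportal genes higher for 1 and lower for 7 of 12, in the former pair, and 0 and 6 and 2 and 9 of 12 in the latter. The summed pericentral level was 13667 to 18761 CPM in ff;ff and 8192 to 11888 in Cpt2L-/-, but 8422 to 14936 in Rab30L-/- and 11531 to 14892 in DKO, where the ranges overlapped and the mean was higher in DKO. The summed periportal level was 17151 to 22035 CPM in ff;ff, 15652 to 18329 in Cpt2L-/-, 19499 to 21949 in Rab30L-/- and 16052 to 17635 in DKO.

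Markers of other cells were counted in the same pairs. Of 12 Kupffer cell genes, 1 was higher and 3 were lower in Cpt2L-/- against ff;ff, and 1 was higher and 10 lower in DKO against Rab30L-/-, at summed levels of 243 to 447 CPM in ff;ff, 236 to 341 in Cpt2L-/-, 305 to 865 in Rab30L-/- and 212 to 284 in DKO, with no gene at 0 in a whole group. Of 12 stellate and 12 endothelial genes, 0 and 0 were higher and 0 and 1 lower in the former pair, and 0 and 2 higher and 0 and 0 lower in the latter. Of 6 cholangiocyte genes tested in the former and 5 in the latter, 0 were higher and 1 and 2 lower, and of 1 and 3 lymphocyte genes, 0 were higher and 1 and 1 lower. No neutrophil gene was tested in either pair. The 1 pancreas gene tested was not called in either pair. Of 2 intestine genes, 1 (Fabp2) was higher and 0 lower in the former and Fabp2 was higher and 1 lower in the latter, with 3 to 5 of the 10 listed genes at 0 in each group and summed levels of 95.1 to 170.1 CPM in ff;ff, 222 to 359 in Cpt2L-/-, 168 to 213 in Rab30L-/- and 216 to 283 in DKO. The hepatocyte list had 0 higher and 5 lower of 10 in both pairs. The part of any of these in the values of the Ugt and Sult genes was not tested.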

How the data were processed

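RNA from 24 livers was sequenced by Novogene, with 6 groups of 4. The authors deposited a table of raw read counts per gene, used for all tests, and a table of FPKM, which equalled the count divided by gene length and 1 factor per library and was used for levels between genes. The submitters' processing notes name HISAT2, DESeq2 and the mouse build GRCm38 (mm10). The read counter, annotation and strand setting are not given in the sources used here, but the gene coordinates match GENCODE M21 for all 42 members. The authors' normalized table and their comparison tables, which hold fold changes and p-values, were not used. Every per-sample column was mapped to a sample by its name (0 unused).

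Groups came from the genotype labels, and replicates were numbered in accession order, so numbers pair no samples. The p-values measure the spread between these livers. CPM were computed from TMM-scaled totals over all 24 libraries, whose raw totals were 11801027 to 24497738 counts. For each comparison edgeR 4.0.16 (R 4.3.3) was fitted to the libraries of the groups compared, with filterByExpr (minimum count 10, minimum total 15), TMM and robust quasi-likelihood F tests, Benjamini-Hochberg adjusted over all genes tested. The interaction was fitted to 4 groups. The standard error is the absolute log2 fold change divided by the square root of F. Alternatives were DESeq2 1.42.0, limma-voom 3.58.1 with sample quality weights, DESeq2 size factors, looser and stricter filters (at least 1 count in all, at least 10 in every library), 1 fit of all libraries, no fold threshold, unadjusted p and each library left out. The edgeR fits were also tested on simulated data. DESeq2, limma-voom and DESeq2 size factors were tested so only for DKO against Cpt2L-/-. No replicate pair agreed within counting noise.

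Count ratios of 2 pairs of members were compared by an exact two-sided permutation test (scipy 1.17.1). Members called in any comparison were given with their values in the groups in which they were called, uncalled ones were named where among the 3 most abundant Ugt or Sult genes, and other genes were named where called and in 1 of 22 gene lists, or as a targeted gene. The members and lists were chosen with earlier results of these data known. Promoters are from RefSeq (GRCm38.p6), in which 36 of 42 members matched. Protein sequences were not used here.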

Additional observations from a re-analysis of the deposited data

Results flagged for a closer look

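Among the 14 members called in a comparison or most abundant, each of 84 groups of 4 livers was searched for a liver far from the other 3, and 3 were found. Chance alone flags about 1 in 20 such groups. Ugt2b1 measured 644 CPM in ff;ff replicate 1, beside 255 to 318 CPM in the other ff;ff livers, so that the gap took 0.839 of the range of the group. Ugt2b35 measured 352 CPM in Cpt2L-/- replicate 4, beside 459 to 476 CPM in the other livers of that label (0.862 of the range). Ugt2b5 measured 1172 CPM in Cpt2L-/- replicate 3, beside 856 to 907 CPM in the others (0.839 of the range). For Sult1d1 the difference of DKO from Cpt2L-/- was 1.05 and that of Rab30L-/- from ff;ff -1.11 on the log2 scale, neither of them called (adjusted p = 0.213 and 0.164, edgeR), and the interaction was 2.16 ± 0.56 (adjusted p = 0.0461, edgeR). It was the 1 member called of 24 tested (4.17%), beside 4.06% of all genes. The call was lost in 13 of 16 omissions of 1 library, under limma-voom (adjusted p = 0.0660) and when genes with at least 1 count in all were kept (adjusted p = 0.112, edgeR).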

How the results depend on the processing

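Over 400 alternatives to the 28 called log2 fold changes, 345 stayed called in the same direction, 55 kept the direction without being called and 0 reversed, and 17 of the 28 stayed called in all of theirs. The 36 group levels of the leading members moved by less than 1 SD on the TMM scale. The number of members called moved by over 1.5 times in the settings of the next 2 sentences, and the ranges with 1 library left out follow them. At an unadjusted p it was 13 for DKO against Rab30L-/-, 8 for DKO against Cpt2L-/-, 2 for Rab30L-/- against ff;ff, 6 for ff;ff against Rab30 Ctrl and 5 for the interaction. With DESeq2's Wald test it was 3, 1 and 2 for DKO against Cpt2L-/-, Rab30L-/- against ff;ff and the interaction, with limma-voom 3 and 0 for the first and last, and with at least 1 count in all 1 and 0. Leaving out 1 library gave 8 to 12 members for Cpt2L-/- against ff;ff, 5 to 9 for DKO against Rab30L-/-, 5 to 9 for DKO against ff;ff, 0 to 2 for DKO against Cpt2L-/-, 0 to 0 for Rab30L-/- against ff;ff and for Rab30KO against Rab30 Ctrl, 2 to 3 for ff;ff against Rab30 Ctrl and 0 to 1 for the interaction. In 1 fit of all libraries, Sult5a1 was no longer called in DKO against Rab30L-/- (adjusted p = 0.0652, edgeR) or ff;ff against Rab30 Ctrl (adjusted p = 0.0888, edgeR), nor Ugt2b37 in Cpt2L-/- against ff;ff (adjusted p = 0.160, edgeR), Sult1d1 in DKO against Rab30L-/- (adjusted p = 0.142, edgeR) or Ugt1a1 in DKO against ff;ff (adjusted p = 0.0545, edgeR). Limma-voom no longer called Ugt3a2 in DKO against Rab30L-/- (adjusted p = 0.0553). The cause was not tested.

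Over all genes, DKO against Cpt2L-/- had 360 calls, 1032 with DESeq2, 1535 with limma-voom, 705 with at least 1 count in all and 114 in 1 fit of all libraries. Rab30L-/- against ff;ff had 64, then 298, 239 and 240 with the first 3 of these and 25 with at least 10 counts in every library. Rab30KO against Rab30 Ctrl had 3, then 10, 1, 6, 9 in 1 fit and 0 with at least 10 counts. The comparison ff;ff against Rab30 Ctrl had 129, then 565, 313, 352, 302 and 67, the interaction 571, then 1080, 1294 and 374 in 1 fit, and DKO against ff;ff 2157, then 3742 with limma-voom. No paired analysis was possible because the groups compared share no replicate numbers in the labels, and the labels that name littermate groups do not say which animals were littermates. With 4 livers a group, small differences may have been missed, and 17 members had too few reads to test.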
